A study of Drosophila melanogaster with 36 samples.

Results

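The miR-2 and miR-13 family of *Drosophila melanogaster* was described here from the miRNA tables of fly heads. Members were chosen by name, as every table feature of dme-miR-2a, dme-miR-2b, dme-miR-2c, dme-miR-13a and dme-miR-13b (written below without the species prefix), which gave 16 of the 673 features listed. These 16 features are 13 mature names, since miR-2a-3p, miR-2b-3p and miR-13b-3p are each listed as a pair of copies for a pair of loci. There are 5 names of 3p arms, which carry the K box seed, and 8 names of 5p arms, each of which belongs to a single hairpin. All 16 features passed the filter on low counts, which kept 363 features of the table.

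Heads came from female w1118 flies, at 55 days of age (old) or 5 days (young), and each sample held 400 whole heads. Both ages shared this genotype and sex, and no allele or drug set them apart. Each age was sampled at the 6 zeitgeber times (ZT) ZT0, ZT4, ZT8, ZT12, ZT16 and ZT20 with 3 replicates, which gives 18 old and 18 young libraries of small RNA. The labels do not say whether replicates came from separate cohorts of flies, so p-values measure the spread between these samples, which may be technical.

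A miRNA hairpin is cut into a pair of arms, 5p and 3p, of which usually only the arm that stays bound to an Argonaute protein represses messenger RNAs. The 3p arms of miR-2 and miR-13 pair through their seed with the K box, a short motif in the 3′ untranslated regions of Notch target genes of the Enhancer of split and Bearded complexes. In fly embryos and cell assays the miR-2 family also represses the proapoptotic genes reaper, grim and sickle.

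The 8 hairpins lie at 4 places on the BDGP6 assembly. In the introns of spi, which encodes the EGF receptor ligand Spitz, mir-2a-2 (chromosome 2L, 19569490 to 19569561), mir-2a-1 (19569897 to 19569972) and mir-2b-2 (19570182 to 19570264) lie on the minus strand, with 335 and 209 bases between neighbours. On chromosome 3R, minus strand, mir-13b-1 (15417408 to 15417475), mir-13a (15417542 to 15417616) and mir-2c (15417744 to 15417845) lie in an exon of lncRNA:CR45911, 66 and 127 bases apart. The mir-2b-1 hairpin (chromosome 2L, 8258616 to 8258692, minus strand) lies in the 3′ untranslated region of Btk, which encodes a Tec family tyrosine kinase. The mir-13b-2 hairpin (chromosome X, 9091230 to 9091299, plus strand) lies in an intron of CCT2, which encodes a chaperonin subunit. miR-2a, miR-2b and miR-13b thus each come from a pair of loci with the same 3p sequence and different 5p arms.

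miRNA totals were 16.2 to 23.6 M counts in old and 19.8 to 30.4 M counts in young libraries. In 3 libraries (old ZT0 replicate 1, young ZT4 replicate 3 and young ZT8 replicate 3) the ovary follicle cell miRNA miR-318-3p stood at 470 to 773 RPM, against at most 51.0 RPM in the other 33. In 2 more, miR-184-3p made up 37.1% (old ZT0 replicate 3) and 45.3% (young ZT0 replicate 1) of miRNA counts, against at most 18.6% elsewhere, and each of these held the lowest level of its age for 8 of the 13 members. The neuronal miR-124-3p was present in every library (312 to 492 CPM in old, 158 to 408 CPM in young). It rose by 0.41 on the log2 scale (edgeR quasi-likelihood test, adjusted p = 1.37e-04), whereas miR-124-5p, from the same hairpin, fell by 0.28, and the part of these changes in the results below was not tested. Of the 4 ovary and 4 testis markers, 0 and 3 rose with age, where 28.7% of all tested features were called higher. Of these 3, miR-303-3p (0.381 CPM in old, 0.142 in young) and miR-984-5p (0.485 in old, 0.293 in young) rest on few counts. The muscle miR-1-3p was not called (0.094). It spanned 385 to 777 CPM in old and 292 to 3094 CPM in young libraries, the highest in young ZT0 replicate 1. The summed ovary markers spanned 10.7 to 660 CPM in old and 15.2 to 902 CPM in young libraries, with a marker at 0 in 11 libraries of each age. The summed testis markers spanned 9.62 to 16.8 CPM in old and 7.16 to 12.0 CPM in young libraries.

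The 3p arms were the major product. They made up 88.8 ± 1.68% of the family's counts in old heads and 90.8 ± 1.16% in young heads (SD, n = 18 each). The family took a small share of all miRNA counts, 0.596 ± 0.0760% for the 3p arms in old heads and 0.585 ± 0.111% in young heads. For the 5p arms the share was 0.0756 ± 0.0141% in old and 0.0583 ± 0.00964% in young heads. Levels are given below as CPM, a count divided by the TMM-scaled library size, with the copies of a 3p arm summed.

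By mean CPM, and with no correction for the nearly equal lengths of mature arms, the order at both ages began miR-2a-3p, miR-2b-3p, miR-13b-3p, miR-13a-3p. miR-2a-3p exceeded miR-2b-3p in 18 of 18 libraries at each age, although the ranges over libraries overlapped. Below these, the order differed between the ages. In old heads miR-2a-2-5p (330 ± 37.8 CPM) and miR-2b-2-5p (256 ± 55.9 CPM) stood above miR-2c-3p (163 ± 17.6 CPM). In young heads miR-2c-3p and miR-2a-2-5p could not be ordered (216 ± 29.0 and 216 ± 20.3 CPM, miR-2c-3p higher in 7 of 18 libraries), and miR-2b-2-5p was close to them (209 ± 36.6 CPM). miR-13b-2-5p and miR-2c-5p could not be ordered in old heads (32.2 ± 3.96 and 31.6 ± 4.75 CPM, in this order in 11 of 18 libraries). In young heads miR-2c-5p (127 ± 14.9 CPM) lay far above miR-13b-2-5p (14.3 ± 1.82 CPM), with miR-13b-1-5p and miR-2b-1-5p between them (21.4 ± 4.04 and 20.1 ± 3.04 CPM, in this order in 10 of 18 libraries). miR-13a-5p was the least abundant at both ages, with 9 to 58 counts per library.

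**Figure D1:**
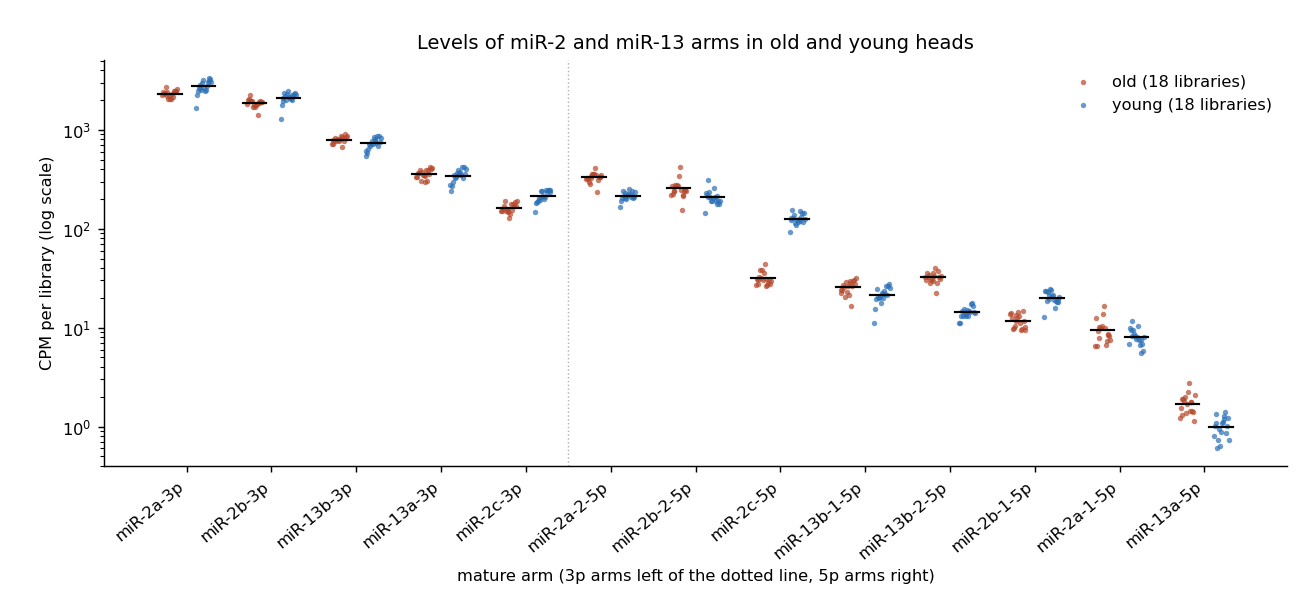
Level of each of the 13 mature arms in every library, in CPM on a log axis, old left of young, with bars at the mean of 18 libraries. On this TMM scale the ages overlap for every 3p arm, with log2 changes of -0.41 (miR-2c-3p) to 0.12 (miR-13b-3p). The ages do not overlap for miR-2c-5p, lower in old heads, and miR-13b-2-5p, higher in old heads.

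Between old and young heads and on the TMM scale, most 3p arms changed little, in both directions (log2 -0.41 to 0.12). The 5p arms changed more and differed from locus to locus. Scaled to the larger total behind the piRNA RPM tables, all 5 names of 3p arms were lower in old heads (log2 -1.04 to -0.51). The test compared the ages over all 36 libraries with time point as a factor (edgeR quasi-likelihood test, Benjamini-Hochberg adjustment over 363 features, threshold 0.05). It called 11 of 13 members, 6 higher and 5 lower in old heads, where 61.4% of all tested features were called, 28.7% higher and 32.8% lower. Several members share a hairpin and some may share reads, so this count describes the members and is no test of the family. Without all 5 libraries that stood apart, 11 members were again called, 6 higher and 5 lower, beside 245 of 386 features. The median absolute log2 change was 0.17 over the 5 names of 3p arms and 0.69 over the 8 of 5p arms, beside 0.39 over all features. With the total behind the piRNA RPM this order turned round, at 0.80 over the 3p and 0.38 over the 5p names. The split between directions depended on the scaling. It became 8 higher and 3 lower with library totals alone, and 1 higher and 10 lower with the total behind the piRNA RPM. These scalings moved the median over all features from -0.01 to 0.19 and to -0.62, and their splits over all features were 145 higher and 72 lower, and 28 higher and 251 lower, beside 104 and 119 here. Changes below are relative to the TMM scale. In these bulk samples, fewer cells that make a miRNA and less of it per cell cannot be told apart.

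Of the 3p arms, miR-2a, miR-2b and miR-2c were lower in old heads, and miR-13b was slightly higher. miR-2a-3p, the most abundant member, had 2047, 2324 and 2695 CPM (lowest, median, highest) in old heads, against 1678, 2713 and 3322 CPM in young heads. The ranges overlapped, and the lowest young value was that of the library rich in miR-184-3p. miR-2a-3p was 1.18-fold lower in old heads (log2 change -0.24, SE 0.062, adjusted p = 0.00123), lower at 6 of 6 time points, and no longer called with library totals alone (-0.052) or in a limma fit of log2(RPM + 1) (-0.031). miR-2b-3p had 1424, 1906 and 2234 CPM in old heads, against 1292, 2167 and 2481 CPM in young heads, with overlap. Its change was -0.17 (SE 0.055, adjusted p = 0.00625), which turned to 0.015 with library totals alone and to 0.026 in the limma fit, neither of them called.

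miR-2c-3p was the 3p arm with the largest change. It had 127, 159 and 192 CPM in old heads, against 146, 212 and 248 CPM in young heads, again with overlapping ranges. The log2 change was -0.41 (SE 0.065, adjusted p = 1.98e-06), lower at 6 of 6 time points. Its sign held under every scaling tried, and the call was lost with log2(RPM + 1), where it was -0.20.

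The miR-13 3p arms did not share the fall. miR-13b-3p had 668, 798 and 902 CPM in old heads, against 549, 731 and 873 CPM in young heads, a log2 change of 0.12 (SE 0.052, adjusted p = 0.0430). This change reversed to -0.51 with the total behind the piRNA RPM, and its call was lost in 17 of the 36 fits that left out a single library. miR-13a-3p averaged 361 ± 37.4 CPM in old and 345 ± 50.1 CPM in young heads (SD, n = 18 each), and its log2 change of 0.065 (SE 0.064) did not pass the test (adjusted p = 0.387). It was called higher in old heads with library totals alone (0.26), in the limma fit of log2(RPM + 1) (0.27) and with a filter at 10 CPM (0.16), and called lower with the total behind the piRNA RPM (-0.56). Within the summed 3p counts, where library scaling has no part, miR-13b-3p made up 14.5 ± 1.01% in old and 12.0 ± 1.32% in young heads. For miR-13a-3p this share was 6.53 ± 0.408% in old and 5.62 ± 0.602% in young heads. For miR-2a-3p it was 42.1 ± 1.37% in old and 44.5 ± 1.62% in young heads, and for miR-2c-3p 2.94 ± 0.193% in old and 3.50 ± 0.208% in young heads. These shares were not tested.

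**Figure D2:**
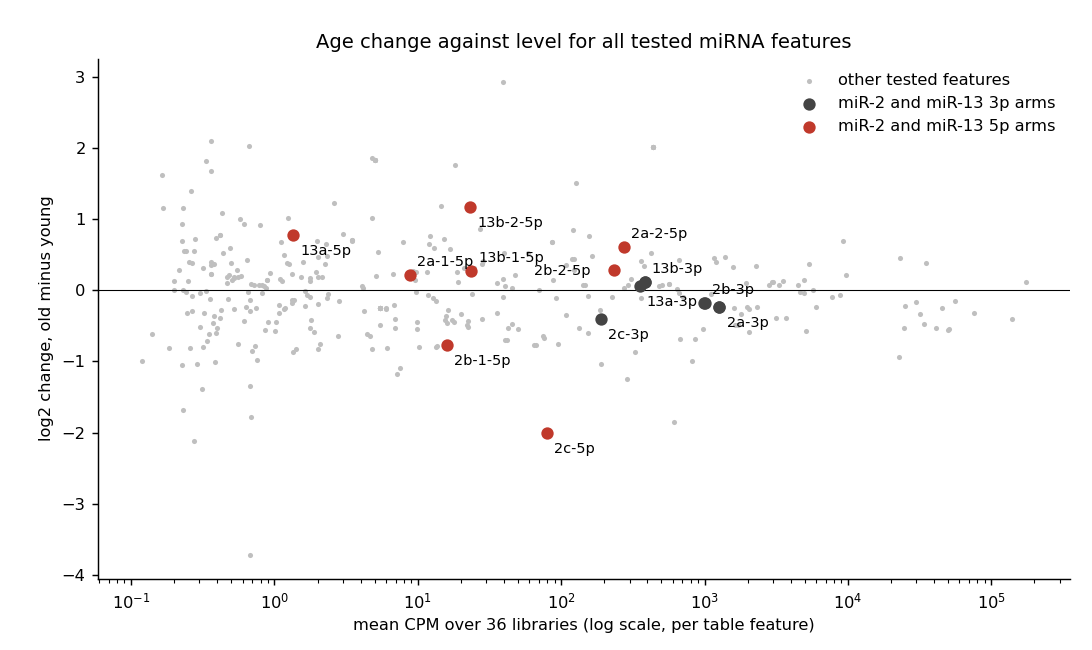
Fitted log2 change (old minus young) of all 363 tested features against their mean CPM on a log axis, with the family's 3p arms in dark grey and its 5p arms in red; each copy of a 3p arm is its own point. On this TMM scale the 3p arms lie between -0.41 (miR-2c-3p) and 0.12 (miR-13b-3p), and miR-2c-5p lies at -2.01.

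The 5p arms spanned a wide range of changes, from a 4.02-fold fall to a 2.25-fold rise. On the TMM scale, 5 of the 8 rose, 2 fell and 1 did not pass the test. Of all tested features, 28.7% were called higher and 32.8% lower. With the total behind the piRNA RPM, only 1 of the 13 members was called higher, beside 28 of 363 features. miR-2c-5p had 26.2, 30.5 and 43.9 CPM in old heads, against 93.6, 125 and 155 CPM in young heads. Every old library lay below every young library. Its log2 change of -2.01 (SE 0.067, adjusted p = 7.32e-23) was the lowest among the 167 features that averaged 10 CPM or more, and at single time points it ranged from -2.16 to -1.92. Among the family's 5p counts, miR-2c-5p made up 4.54 ± 0.457% in old and 20.6 ± 1.87% in young heads (SD, n = 18 each). The ages did not overlap for 2 of the 13 members, beside 9.64% of all tested features (4.41% wholly lower and 5.23% wholly higher in old heads).

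The other member without overlap was miR-13b-2-5p, and it moved the other way. It had 22.4, 32.4 and 40.6 CPM in old heads, against 11.02, 14.3 and 17.7 CPM in young heads. All old libraries lay above all young ones. The change was 2.25-fold (log2 1.17, SE 0.061, adjusted p = 7.60e-18), with values of 1.02 to 1.30 at single time points. The lowest old value again belonged to the library rich in miR-184-3p.

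miR-2a-2-5p, the most abundant 5p arm in old heads, had 233, 332 and 413 CPM in old heads, against 168, 213 and 253 CPM in young heads. In 17 of 18 old libraries it exceeded every young library. It rose 1.53-fold (log2 0.61, SE 0.052, adjusted p = 3.62e-12), but with the total behind the piRNA RPM the change was -0.0048. miR-2b-1-5p had 9.51, 11.7 and 14.6 CPM in old heads, against 12.8, 19.9 and 24.7 CPM in young heads. It was 1.70-fold lower in old heads (log2 -0.77, SE 0.075, adjusted p = 9.98e-11), and in 12 of 18 old libraries it lay below the young range.

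The remaining 5p arms rose by less or rest on few counts. miR-2b-2-5p rose by 0.29 on the log2 scale (SE 0.085, adjusted p = 0.00382) and miR-13b-1-5p by 0.27 (SE 0.084, adjusted p = 0.00575), and both turned negative with the total behind the piRNA RPM (-0.33 and -0.36). miR-13a-5p rose by 0.77 (SE 0.121, adjusted p = 1.63e-06), at 1.71 ± 0.406 CPM in old and 0.993 ± 0.241 CPM in young heads, and was no longer called with the total behind the piRNA RPM (0.15). miR-2a-1-5p stood at 9.46 ± 2.65 CPM in old and 8.14 ± 1.59 CPM in young heads (log2 0.21, SE 0.108, adjusted p = 0.0936). Its counts held the same fraction of a read as those of miR-2b-2-5p in 18 of 36 libraries. Counts of shared reads would do so, but sharing was not tested, so these arms may not be wholly separate measurements. miR-13b-1-5p and miR-2c-5p had the same fraction in 9 of 36 libraries. So did miR-13b-1-5p and miR-2a-2-5p, from different loci, in 7, and miR-2a-2-5p and miR-2c-5p in 6. Counts were non-whole in 23 (miR-13b-1-5p), 22 (miR-2a-2-5p) and 20 (miR-2c-5p) libraries. Matches of this number do not by themselves show shared reads.

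On the TMM scale, arms of neighbouring hairpins did not move together at the 3R locus. There miR-2c-5p was lower in old heads while miR-13a-5p and miR-13b-1-5p, cut from the same exon, were higher. Of their 3p arms, miR-2c-3p was lower, miR-13a-3p did not pass the test, and miR-13b-3p, which the X locus also makes, was slightly higher. These directions depended on the scaling. With the total behind the piRNA RPM, miR-13b-1-5p (-0.36), miR-13a-3p (-0.56) and miR-13b-3p (-0.51) were lower in old heads too. There miR-13a-5p was not called (0.15), and miR-2c-5p and miR-2c-3p changed by -2.63 and -1.04. At the spi introns the 5p arms had changes of 0.61 (miR-2a-2), 0.21 (miR-2a-1, not called) and 0.29 (miR-2b-2). On the same TMM scale miR-2a-3p was lower, and so was miR-2b-3p, which the Btk locus also makes. With library totals alone neither 3p change was called (-0.052 and 0.015). With the total behind the piRNA RPM these 5p changes were -0.0048 (miR-2a-2), -0.40 (miR-2a-1) and -0.33 (miR-2b-2). Differences between hairpins of the 3R locus were not tested.

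The ratio of 3p to 5p counts, which lies within a library and needs no scaling, was compared between the ages over 105 hairpins with both arms (limma on the log2 ratio, Benjamini-Hochberg adjustment). It was called for 7 of the 8 hairpins of the family, 2 higher and 5 lower in old heads, where 57.1% of all hairpins were called, 24.8% higher and 32.4% lower. Each 5p arm was set against the whole of its 3p sequence, so hairpins that share a 3p sequence also share this part of the ratio.

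The miR-2c hairpin had the second largest absolute change of the 105. Its ratio was 3.23, 5.73 and 6.66 (lowest, median, highest) in old heads, against 1.24, 1.72 and 2.22 in young heads. The ages did not overlap, and the log2 change was 1.61 (SE 0.097, adjusted p = 1.87e-15). The miR-2b-1 ratio was also higher in old heads, with medians of 156 in old and 105 in young heads (log2 0.60, SE 0.085, adjusted p = 4.75e-07).

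The ratio fell at the other called hairpins. That of miR-13b-2 was 20.6, 25.6 and 29.9 in old heads, against 38.9, 52.4 and 61.6 in young heads, without overlap (log2 -1.04, SE 0.062, adjusted p = 1.87e-15). That of miR-2a-2 was 5.00, 7.22 and 9.62 in old heads, against 9.77, 12.5 and 15.5 in young heads, also without overlap (log2 -0.84, SE 0.084, adjusted p = 3.75e-10). Ratios did not overlap for 3 of the 8 hairpins, beside 7.62% of all hairpins. The falls of miR-13a (-0.70), miR-2b-2 (-0.45) and miR-2a-1 (-0.42) came with overlapping ranges, and miR-13b-1 (-0.15) did not pass the test (limma, adjusted p = 0.0918). The call of miR-2a-1 was lost with an estimated correlation within series (limma, adjusted p = 0.0698) and when each series was summed to a single sample (0.218). The call of miR-2b-2 was lost in these sums too (limma, adjusted p = 0.122).

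**Figure D3:**
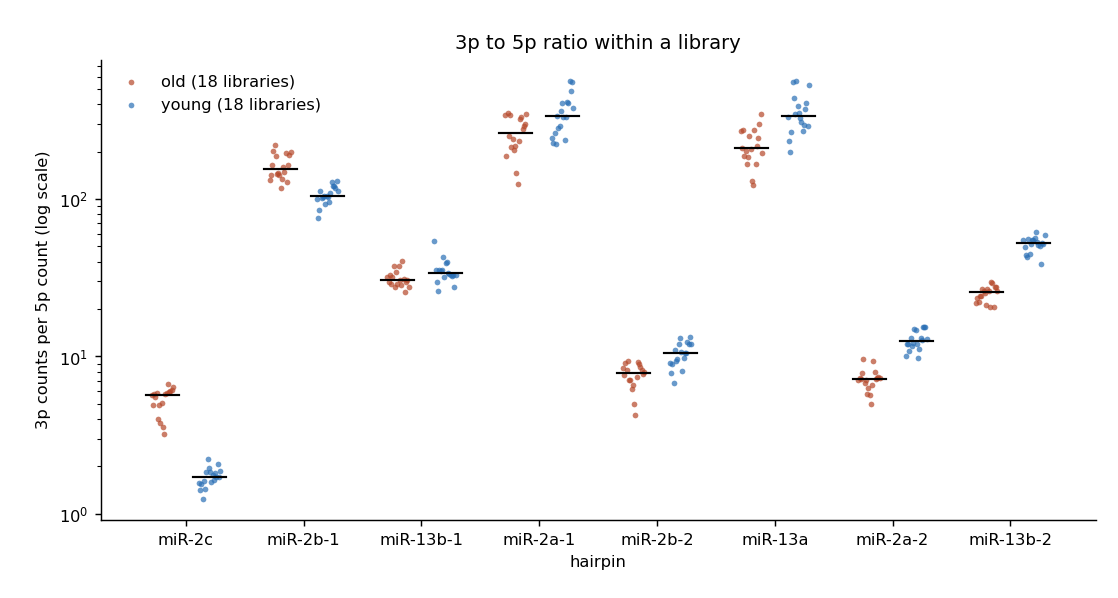
3p counts per 5p count for the 8 hairpins in every library, on a log axis, old left of young, with bars at the median of 18 libraries. The ratio is higher in old heads for miR-2c and miR-2b-1 and lower for miR-13b-2 and miR-2a-2.

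Where a pair of loci shares a 3p sequence, the 5p arms are listed by locus, and at all 3 such pairs the balance of their counts differed between the ages. Counts of miR-2a-1-5p may share reads with miR-2b-2-5p, which was not tested, so the miR-2a and miR-2b balances may be less cleanly those of a locus. miR-13b-2-5p, from the CCT2 intron, made up 51.5, 56.4 and 59.7% of the miR-13b 5p counts in old heads, against 34.7, 39.7 and 49.6% in young heads. It was the majority in every old library and the minority in every young library. The log2 ratio of miR-13b-1-5p to miR-13b-2-5p averaged -0.33 ± 0.166 in old and 0.57 ± 0.212 in young heads (SD, n = 18 each), a difference of -0.89. A 2-sided permutation test over libraries gave p = 1e-05, the smallest that 100000 resamples can give, and 2e-05 after adjustment over the 3 pairs.

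miR-2b-1-5p, from the Btk 3′ untranslated region, made up 3.05, 4.38 and 6.26% of the miR-2b 5p counts in old heads, against 5.62, 9.26 and 11.4% in young heads. The difference in the log2 ratio of miR-2b-1-5p to miR-2b-2-5p was -1.05 (permutation p = 1e-05, adjusted 2e-05), lower in old heads at 6 of 6 time points, though the ranges overlapped. miR-2a-1-5p made up 2.00, 2.73 and 3.83% of the miR-2a 5p counts in old heads, against 2.66, 3.61 and 4.99% in young heads. Its log2 ratio to miR-2a-2-5p differed by -0.41 (permutation p = 8e-05, adjusted 8e-05), with wide overlap. Over the means of 3 old and 3 young series of libraries with the same replicate number, exact permutation p-values were 0.1 for miR-13b, 0.1 for miR-2b and 0.2 for miR-2a, where 0.1 is the smallest p this design can reach.

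**Figure D4:**
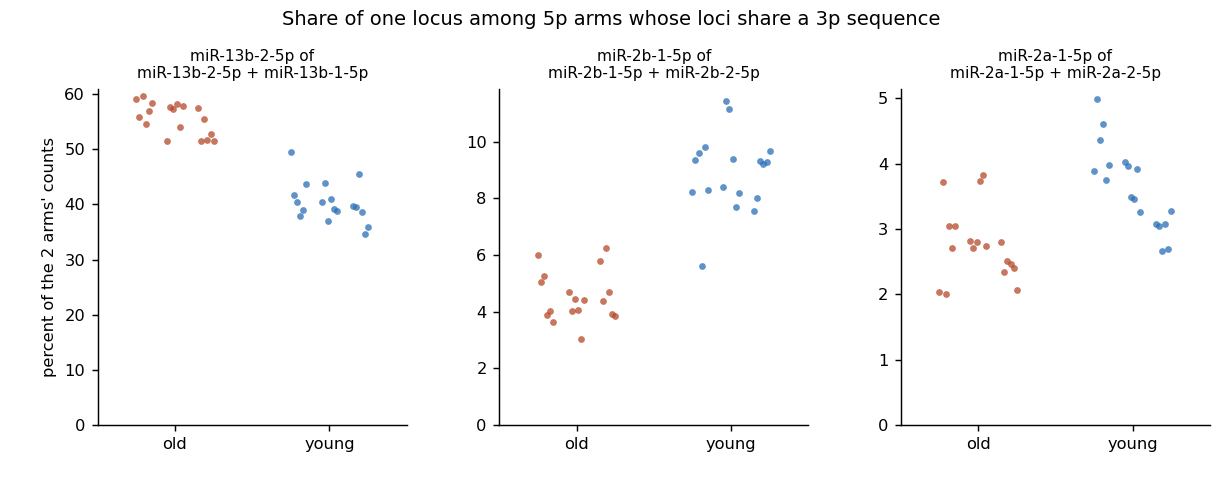
Share of one locus among the summed 5p counts of both loci, in percent per library, old left of young, with the 3 columns of points in each age standing for replicates 1, 2 and 3. miR-13b-2-5p lies above 50 percent in all old libraries and below it in all young ones.

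By time of day, no member passed a test. A 24 h cosine fitted in each age with edgeR called 0 of 13 members in old and 0 of 13 in young heads, where 0% and 4.68% of all features were called. Of the members, 0 had an unadjusted p under 0.05 at either age, beside 11.6% of all features in old and 9.92% in young heads. Fitted peak-to-trough sizes of the members on the log2 scale were 0.06 to 0.34 in old heads (median 0.18) and 0.10 to 0.35 in young heads (median 0.19). The smallest unadjusted p was 0.158 in old heads (miR-2b-2-5p) and 0.134 in young heads (miR-2b-3p). A difference of rhythm between the ages was called for 0 members (0% of all features, 9.37% at an unadjusted p under 0.05), and so was a dependence of the age difference on time point (0% of all features, 6.61% at an unadjusted p under 0.05). In both tests 0 members had an unadjusted p under 0.05. DESeq2 also called 0 members in each of the 4 tests. A test that was not passed does not show that there is no daily change.

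For the pair of arms whose ages did not overlap over all libraries, the levels by time give the size of the difference. miR-2c-5p averaged 28.3, 32.1, 28.8, 32.3, 34.9 and 32.9 CPM at ZT0, ZT4, ZT8, ZT12, ZT16 and ZT20 in old heads, against 120, 123, 129, 129, 132 and 127 CPM in young heads. miR-13b-2-5p averaged 28.6, 30.1, 36.2, 31.5, 32.8 and 34.2 CPM in old heads, against 13.1, 14.1, 14.7, 15.5, 13.5 and 14.8 CPM in young heads. That all 3 old libraries lay on one side of all 3 young ones at each time follows from this lack of overlap. It is no added support. All members but miR-13a-3p, which was higher in old heads at 5 of 6 times, had a single direction at all 6 times. Sizes varied more for other arms, as for miR-2b-1-5p, from -0.95 at ZT20 to -0.38 at ZT0, and miR-2a-3p, from -0.34 at ZT8 to -0.026 at ZT0, though no dependence on time point passed the test. Both ZT0 values include the young library rich in miR-184-3p, replicate 1. It held 1678 CPM of miR-2a-3p, beside 2519 and 2748 CPM in the other young ZT0 libraries. For miR-2b-1-5p it held 12.8 CPM, beside 19.3 and 15.7 CPM.

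**Figure D5:**
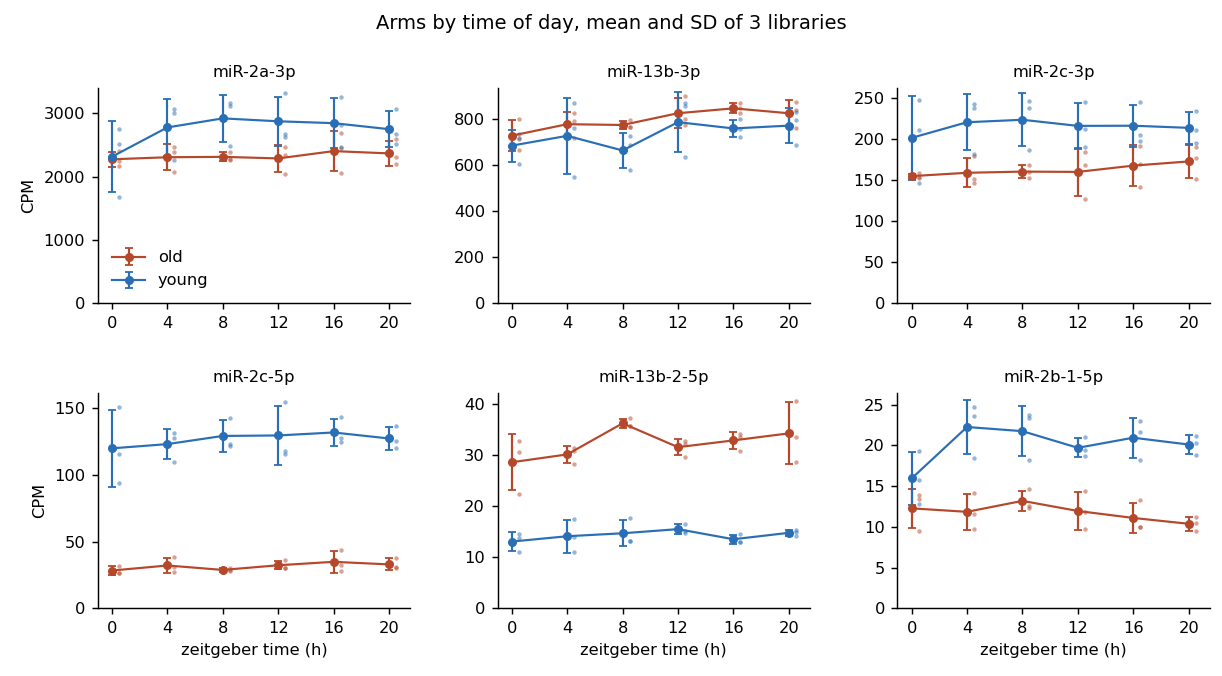
Mean and SD of 3 libraries in CPM against zeitgeber time for 6 arms, old in red and young in blue, with single libraries as small points beside the means. For miR-2c-5p and miR-13b-2-5p the ages are apart at every time, which follows from their lack of overlap over all libraries. No arm passed a test for a rhythm.

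Other fly miRNAs with the K box seed, miR-6, miR-11 and miR-308, add 10 features, of which 7 were tested. miR-11-3p was far more abundant than any member, at 28112 ± 5162 CPM in old and 31526 ± 3768 CPM in young heads (SD, n = 18 each; log2 change -0.17, SE 0.069, edgeR adjusted p = 0.0301). For miR-308-3p the log2 change was 1.51 (SE 0.097, adjusted p = 3.31e-15), with 187 ± 31.6 CPM in old and 65.5 ± 13.8 CPM in young heads, without overlap. miR-6-3p, known from early embryos, rose by 0.70 (SE 0.150, adjusted p = 1.35e-04) at 12.9 ± 2.89 CPM in old and 8.05 ± 3.77 CPM in young heads. On the TMM scale the 3p arms with this seed thus moved in both directions here too. The fall of miR-11-3p was of the size of the shift of the median over all features with library totals alone (from -0.01 to 0.19). Values of these miRNAs on other scalings are not given here.

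Across the 36 libraries, the named miRNAs whose log2 CPM was most like that of miR-2a-3p were miR-193-3p (r = 0.89), miR-307a-3p (r = 0.87) and miR-124-5p (r = 0.85), out of 141 candidates. With age miR-193-3p and miR-124-5p fell, as miR-2a-3p did (-0.49 and -0.28), and miR-307a-3p was not called (-0.11). After the age means were removed these values were 0.85, 0.92 and 0.78. For miR-2c-5p they were miR-193-5p (r = 0.96), miR-375-3p (r = 0.96) and miR-957-3p (r = 0.95), and after removal of the age means -0.07, 0.56 and 0.07. The likeness of miR-193-5p and miR-957-3p to miR-2c-5p is thus mostly that of the difference between the ages. For miR-375-3p part of the likeness remained within the ages. The libraries share their scaling, and these correlations are descriptions with no test.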

How the data were processed

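Small RNA from whole heads was sequenced in 36 libraries, 18 per age. The authors deposited expected counts per mature miRNA arm, with fractions of reads, and the same tables as RPM, which scale each count to the miRNA total of its library. The piRNA RPM tables, deposited by the authors with their counts, divide by a larger total that the files do not name. It was used only as an alternative scaling, since the family has no rows there. Bowtie and the BDGP6 and dm6 builds are listed, per the submitters' processing notes, and versions are not given in the sources used here. Files call the values adjusted, without a definition. All columns of the 24 tables belonged to listed samples.

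Counts were rounded to whole numbers and tested with edgeR 4.0.16 (TMM factors, filterByExpr over the 12 groups). Arm ratios, log2((3p + 0.5)/(5p + 0.5)), were tested with limma 3.58.1, and ratios of 5p arms with permutation tests in scipy 1.17.1. The pipelines were tested on simulated data. R was 4.3.3. Copies of a 3p sequence differed in total by at most 0.423%, and their counts were summed for levels and ratios, while age tests use the first listed copy. Summing assumes that reads of both copies were divided between them, which the files do not state. If they were not, levels, shares and ratios of miR-2a-3p, miR-2b-3p and miR-13b-3p are too high at both ages. Hairpin positions come from the BDGP6 gene annotation. All members are named. Beyond them, the other K box miRNAs, markers of other tissues and the 3 miRNAs most like the most abundant 3p arm and the most changed 5p arm are named by rule, from those that averaged 10 CPM or more for the last. Members, lists and tests were chosen with earlier results of these data known. Library totals limit the precision of low arms such as miR-13a-5p. Alternatives were RLE factors, library totals alone, the total behind the piRNA RPM, TMM without the members, other filters, summed copies, DESeq2 1.42.0, limma on log2(RPM + 1), limma-voom that allows libraries of a series to correlate (statmod 1.5.0), sums per series, a replicate block, a pseudocount of 5, and the libraries that stand apart or each library left out.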

Additional observations from a re-analysis of the deposited data

How the results depend on the processing

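The count of members called with age, 11, was 10 to 12 in 13 of 14 alternatives and when each library was left out in turn. Over all features, calls in those 13 ran from 239 of 636 (no filter) to 279 of 363 (total behind the piRNA RPM), beside 223 of 363 in the main fit. With counts summed per series, 6 members (3 higher, 3 lower) and 167 of 363 features were called. These sums leave 3 samples per age, and miR-2a-3p, miR-2b-3p, miR-13b-3p, miR-2b-2-5p and miR-13b-1-5p lost their calls. Without the 3 ovary-rich libraries, 11 members (6 higher, 5 lower) were called beside 228 of 365 features, and 7 hairpin ratios beside 57 of 104. Without all 5 libraries that stand apart, 11 members (6 higher, 5 lower) were called beside 245 of 386 features. There 7 hairpin ratios were called beside 66 of 106. With the total behind the piRNA RPM, which counted 25.9 ± 2.03% of its reads as miRNA in old and 45.5 ± 3.02% in young libraries, the changes of miR-13a-3p (-0.56), miR-13b-3p (-0.51), miR-13b-1-5p (-0.36), miR-2a-1-5p (-0.40), miR-2a-2-5p (-0.0048) and miR-2b-2-5p (-0.33) reversed, and miR-13a-5p was no longer called (0.15). miR-2b-3p reversed with library totals alone (0.015) and in the limma fit of log2(RPM + 1) (0.026), which moved the median of all features to 0.11 and called 8 members higher and 2 lower (146 and 69 over all features). miR-2b-3p also lost its call with no filter (-0.12) and with a filter at 10 CPM (-0.079). miR-13b-3p lost it with TMM factors made without the members, with limma-voom and in 17 of 36 fits without a library. Apart from the shifts of scale, the causes were not tested.

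Hairpin ratios called were 7 to 8 without single libraries, 6 with a correlation within series (36 of 105 hairpins in all, beside 60) and 5 with sums per series (30 of 105). Ratios of 5p arms without single libraries were -0.93 to -0.87 (miR-13b), -0.45 to -0.39 (miR-2a) and -1.09 to -1.02 (miR-2b). Rhythm counts of members stayed at 0 in every alternative run, while features called in young heads numbered 17, beside 4 with a filter at 10 CPM, 1 in the limma fit of log2(RPM + 1), 4 without the 3 ovary-rich libraries and 3 without all 5. DESeq2 called 18 features in young heads, 0 in old heads, 4 for a difference of rhythm and 7 for a dependence on time point, 0 of them members. RLE factors and library totals each called 1 feature for a difference of rhythm.

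Replicate numbers did not clearly pair old with young samples. Deviations of same-numbered libraries at one time correlated with a mean r of 0.05, and 7 of 18 exceeded 0.1. For different numbers the mean r was -0.02, and 11 of 36 exceeded 0.1. Between times, same-numbered young libraries did share structure (mean r 0.17, 32 of 45 over 0.1, beside -0.09 and 9 of 90 for different numbers), and old ones less (mean r 0.04, 12 of 45). The estimated correlation within series was 0.13 for counts and 0.18 for arm ratios. With the replicate block 12 members were called (7 higher, 5 lower), beside 231 of 363 features. There miR-2a-1-5p gained a call (0.20, adjusted p = 0.0446 with edgeR). It also did so with library totals alone (0.41) and in the limma fit (0.35), but not with counts summed per series. With the replicate block the ratio count stayed at 7, beside 62 of 105 hairpins, and the rhythm counts at 0.

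Depth limits miR-13a-5p most, at 9 to 58 counts per library.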
